A study of Mus musculus with 15 samples.

Results

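The genes of DNA replication and mitosis were examined in 2 mouse tumour lines with altered levels of Ssbp4, whose product belongs to a family of single-stranded DNA binding proteins. The set was 45 named genes, 22 of S phase (the phase in which DNA is copied) and 23 of mitosis, taken by symbol from a fixed list. The list was chosen with earlier results of these data known, so counts of calls among its genes are descriptions. All 45 had an entry in the table of each line, among 54343 entries for MC38 and 55303 for B16-F10, and all 45 were above the expression minimum in both lines, a mean of at least 1 FPKM (fragments per kilobase of transcript and per M of mapped fragments), which left 10748 and 10902 genes for testing. The lines had 15 libraries of polyadenylated RNA from cultured cells.

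MC38, a mouse colon carcinoma line, had 4 wild-type libraries and 3 libraries of cells stably overexpressing murine Ssbp4. The overexpressing cells had been transduced with the retroviral vector pMSCV-IRES-EGFP carrying the Ssbp4 cDNA and then expanded. The labels name no group with the empty vector, so transduction and overexpression cannot be told apart in that comparison. B16-F10, a mouse melanoma line, had 4 libraries labelled wild type and 4 labelled knockout. Both sets had been electroporated with the Cas9 nuclease, the knockout cells with several guide RNAs against Ssbp4 and the control cells with 1 guide to an intergenic site on chromosome 2, and no cloning step is described. The labels do not say whether replicates were separate cultures, so each p-value rests on a spread between libraries that may be technical alone.

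Before a cell copies its DNA, the proteins Cdc6 and Cdt1 load the Mcm2-7 ring onto replication origins, and Cdc45 and the GINS proteins later join the ring to form the moving helicase. Many genes of this machinery are transcribed around the G1/S transition by E2F factors. Genes for entry into and passage through mitosis, such as cyclins B1 and B2 and the aurora kinases, are transcribed later, in G2, through promoter elements called CHR and CCAAT boxes. The mRNA level of either set in a growing culture therefore follows both the share of cells in a phase and the rate per cell. In bulk RNA, fewer cells in a phase and less of these mRNAs per cell cannot be told apart.

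Ssbp4 stood at 13.2, 17.3, 17.04 and 17.6 FPKM in MC38 wild-type libraries 1 to 4 and at 581, 559 and 462 FPKM in overexpressing libraries 1 to 3. In B16-F10 it stood at 32.7, 37.4, 32.4 and 35.4 FPKM in wild type and at 23.1, 21.998, 24.3 and 19.002 FPKM in the libraries labelled knockout, so mRNA of the targeted gene remained at a lower level (log2 fold change -0.62, adjusted p = 0.00869). Estimated depth was 32.1 to 48.5 M fragments per library. Of 7 melanocyte markers, 7 had a mean of at least 1 FPKM over all libraries in B16-F10 (summed level 10982 to 14075 FPKM in wild type and 13645 to 14154 in knockout) and 0 in MC38 (summed level 0.934 to 2.11 FPKM over both groups, most of it Mitf, with Mlana listed at 0), although melanoma is the labelled tissue of MC38 too. Of 7 epithelial markers in MC38, Krt8 and Krt18 had such a mean, Krt18 only through wild type, and Cdx2 was listed at 0. Exons of 12 of the 45 genes (Mcm7, Cdc45, Gins2, Tk1, Ccne2, Ccna2, Cdc25b, Cdc25c, Cdc20, Ube2c, Plk1 and Kif20a) overlap a gene on the other strand in the GENCODE annotation, and whether counting used strand is not given in the sources used here, so their values are less certain. Listed pseudogenes of Pcna, Tyms, Ccnb1 and Ccnb2 stood at 0 to 1.68 FPKM.

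In MC38 with Ssbp4 overexpression, most called replication genes were lower and most called mitotic genes were higher, each by a small amount, and about as many genes of either class were not called. Of the 22 S-phase genes 10 fell, 1 rose (Cdc6) and 11 did not pass the test. Of the 23 mitotic genes 11 rose, 2 fell (Cdk1 and Tpx2) and 10 did not pass. The test was limma on log2(FPKM + 1) with Benjamini-Hochberg adjustment over all 10748 genes, called at an adjusted p under 0.05. Many other genes changed as well: 47.5% of all tested genes were called, 23.9% as higher and 23.6% as lower. The median log2 fold change was -0.11 over the S-phase genes (range -0.31 to 0.21) and 0.11 over the mitotic genes (range -0.14 to 0.25), beside -0.0088 over all tested genes. Overexpressing libraries lay wholly below wild type for 13 S-phase genes and 3 mitotic genes, where 25.1% of all tested genes did so, and wholly above it for 1 S-phase and 13 mitotic genes, where 25.5% did so. Leaving out overexpressing library 1 reduced the mitotic genes called higher from 11 to 7 and those called lower from 2 to 0. Markers of other cell types moved with the same contrast. The summed level of the 4 fibroblast markers was 81.6 to 87.1 FPKM in wild type and 383 to 391 FPKM in overexpressing libraries, nearly all of it Dcn and Pdgfra, and Lum was above 1 FPKM in overexpressing libraries alone. The 7 epithelial markers summed to 6.68 to 8.86 and 8.90 to 10.7 FPKM: Krt8 rose from 3.22 ± 0.450 to 9.45 ± 1.06 FPKM and Krt18 fell from 3.23 ± 0.407 to 0.0607 ± 0.0883 FPKM (SD, n = 4 and 3, limma adjusted p = 2.6e-06 and 1.55e-07), and Epcam, at 0.658 to 1.05 FPKM in wild type, was listed at 0 in overexpressing libraries. The 6 leukocyte markers summed to 2.20 to 3.03 and 3.64 to 4.37 FPKM, mostly Cd68 (limma adjusted p = 0.0163, higher), with Cd3e listed at 0, and the 4 endothelial markers to 4.30 to 5.71 and 2.89 to 3.63 FPKM, mostly Egfl7 (adjusted p = 0.00258, lower). The part of these markers in the results was not tested.

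**Figure D1:**
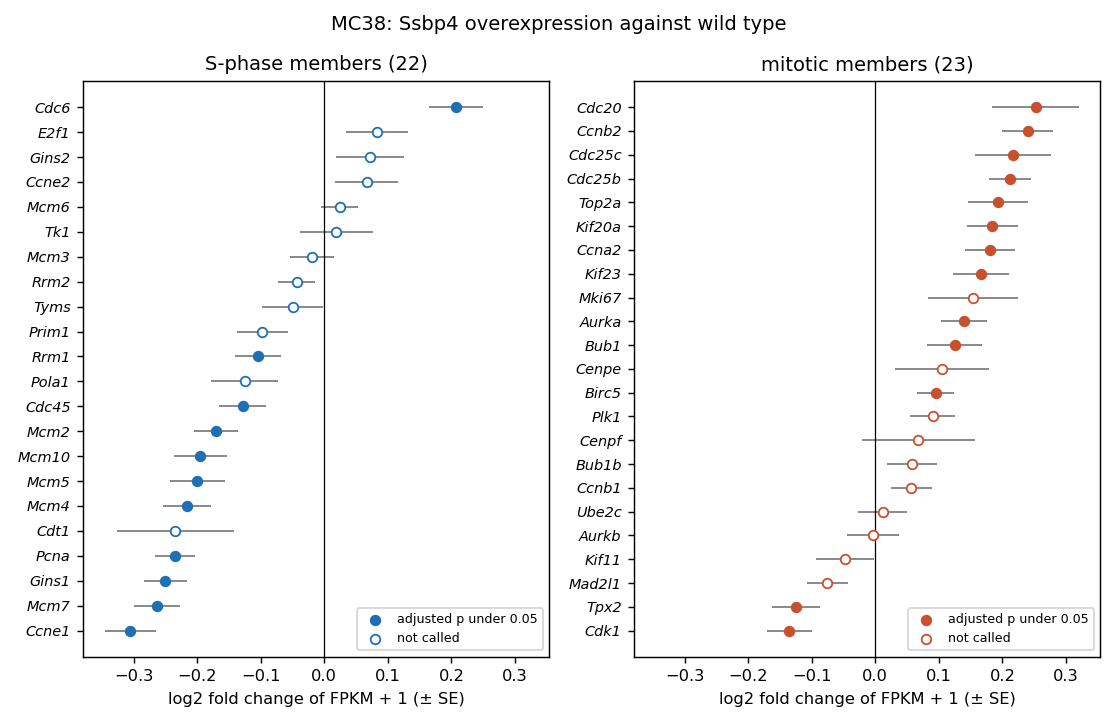
Log2 fold change of FPKM + 1 (Ssbp4 overexpression over wild type, x axis) for each of 22 S-phase genes (left) and 23 mitotic genes (right) in MC38, with bars for the standard error and filled points for an adjusted p under 0.05. Among S-phase genes 10 filled points lie left of 0 and 1 right of it, and among mitotic genes 11 lie right of 0 and 2 left.

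Of the 9 helicase genes 6 fell, 0 rose and 3 did not pass the test, where 23.6% of all tested genes fell and 23.9% rose. Mcm7, a subunit of the Mcm2-7 ring, stood at 92.1, 95.3, 88.8 and 89.9 FPKM in wild-type libraries 1 to 4 and at 74.4, 75.8 and 78.01 FPKM in overexpressing libraries 1 to 3. Every overexpressing library was below every wild-type library, and the mean fell by 16.9% (log2 fold change -0.26, SE 0.036, adjusted p = 0.000189). Mcm4, also of the ring, stood at 63.03, 61.3, 58.98 and 58.5 FPKM in wild type and 51.5, 53.2 and 50.9 FPKM in overexpressing libraries (log2 fold change -0.22, adjusted p = 0.000938). Gins1, a subunit of the GINS complex, was tight within groups, at 33.5, 34.1, 33.5 and 34.8 FPKM against 28.4, 28.6 and 28.2 FPKM (log2 fold change -0.25, adjusted p = 0.000186). These 3 genes again showed no overlap between groups. Mcm2 fell from 68.1 ± 2.06 FPKM (SD, n = 4) to 60.3 ± 0.546 FPKM (SD, n = 3), and Mcm5 from 80.9 ± 4.24 to 70.3 ± 1.22 FPKM (limma adjusted p = 0.00232 and 0.00341). Not every gene of the ring was called. Mcm3 stood at 97.97, 101, 93.98 and 96.3 FPKM in wild type and 95.8, 94.2 and 97.9 FPKM in overexpressing libraries, and Mcm6 at 116, 113, 115 and 115 FPKM in wild type and 116, 119 and 115 FPKM with overexpression. For both of these genes the groups overlapped (limma adjusted p = 0.674 and 0.523). Cdc45, which joins the ring to start unwinding, fell from 42.6 ± 0.725 to 38.9 ± 1.44 FPKM (SD, n = 4 and 3, limma adjusted p = 0.016), and was no longer called without overexpressing library 2 (adjusted p = 0.0769) or with libraries scaled to a common total (0.0522). Gins2, of the same complex as Gins1, had overlapping groups and a log2 fold change of 0.073 (limma adjusted p = 0.293).

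Among the origin loading and activation genes, the pattern was mixed. Cdc6, which loads the ring together with Cdt1, rose: it stood at 19.9, 20.4, 19.6 and 19.5 FPKM in wild type and at 22.8, 24.2 and 22.2 FPKM in overexpressing libraries. All 3 overexpressing libraries were above wild type (log2 fold change 0.21, SE 0.042, adjusted p = 0.00266), and Cdc6 was the single S-phase gene called higher. Mcm10, which takes part in helicase activation, went the other way, from 29.4 ± 1.01 to 25.6 ± 0.771 FPKM (SD, n = 4 and 3, log2 fold change -0.19, adjusted p = 0.00308). Cdt1 stood at 31.3, 42.3, 38.6 and 41.6 FPKM in wild type and 34.7, 31.2 and 31.2 FPKM in overexpressing libraries. Wild-type library 1 lay among the overexpressing values, and the gene was not called (log2 fold change -0.23, SE 0.092, adjusted p = 0.0595). Without wild-type library 1 it was called lower (limma adjusted p = 0.000938).

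Pcna, the sliding clamp that holds DNA polymerases on their template, had the highest wild-type FPKM of the set. It stood at 267, 265, 273 and 261 FPKM in wild-type libraries 1 to 4 and at 229.7, 220.4 and 229 FPKM in overexpressing libraries 1 to 3. The groups did not overlap, and the mean fell by 15.1% (log2 fold change -0.23, SE 0.032, adjusted p = 0.000183). Pola1, the catalytic subunit of DNA polymerase alpha, and Prim1, the catalytic subunit of primase, had log2 fold changes of -0.13 and -0.10 and were not called (limma adjusted p = 0.0747 and 0.0725). Pola1 was called lower without wild-type library 2 (adjusted p = 0.0499).

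Of the 4 genes of nucleotide supply 1 fell (25%), near the 23.6% of all tested genes. Rrm1, the large subunit of ribonucleotide reductase, fell from 107 ± 4.17 to 99.1 ± 0.940 FPKM (SD, n = 4 and 3, limma adjusted p = 0.0382). That call was lost when any of wild-type libraries 1 and 4 or overexpressing libraries 1, 2 and 3 was left out (adjusted p = 0.0721, 0.076, 0.115, 0.0766 and 0.0858), with a common total (0.149) and with no expression minimum (0.0672). Rrm2, the small subunit, stood at 254, 257, 261 and 262 FPKM in wild type and 252, 253 and 247 FPKM in overexpressing libraries. All 3 overexpressing values were lower, but the difference of means was 2.99% and was not called (limma adjusted p = 0.247). Tyms (thymidylate synthase) and Tk1 (thymidine kinase) had log2 fold changes of -0.05 and 0.019 and were not called (limma adjusted p = 0.421 and 0.808).

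Ccne1, cyclin E1, which drives the G1/S transition with Cdk2, had the lowest fold change of the 45 genes. It stood at 29.1, 30.7, 28.7 and 29.8 FPKM in wild type and at 24.4, 22.8 and 24.05 FPKM in overexpressing libraries. No value of either group fell within the range of the other, and the mean fell by 19.7% (log2 fold change -0.31, SE 0.041, adjusted p = 0.000173). Its paralog Ccne2, cyclin E2, stood at 20.3, 18.6, 21.3 and 19.8 FPKM in wild type and 21.6, 20.7 and 20.6 FPKM with overexpression, and the transcription factor gene E2f1 at 22.1, 24.3, 23.6 and 24.5 FPKM in wild type and 26.4, 24.2 and 24.7 FPKM with overexpression. Both had overlapping groups and log2 fold changes above 0 (0.067 and 0.083, limma adjusted p = 0.291 and 0.187). Of the 11 S-phase calls, 9 held in every fit that left out 1 library: Mcm2, Mcm4, Mcm5, Mcm7, Gins1, Mcm10, Pcna and Ccne1 as lower and Cdc6 as higher.

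Mitotic cyclins and their switches held the most calls among the mitotic genes, 4 higher and 1 lower of 6. Of all tested genes 23.9% were called higher and 23.6% lower. Ccnb2, cyclin B2, stood at 48.9, 53.1, 51.5 and 52.7 FPKM in wild-type libraries 1 to 4 and at 63.3, 60.003 and 59.8 FPKM in overexpressing libraries 1 to 3. The groups were separate and the mean was 18.4% higher (log2 fold change 0.24, SE 0.040, adjusted p = 0.00073). Cdc25b, a phosphatase that activates Cdk1, stood at 33.7, 33.2, 33.1 and 32.4 FPKM against 38.7, 37.8 and 38.97 FPKM, with an adjusted p = 0.000519 by limma that was the lowest of the mitotic genes. Ccna2, cyclin A2, which acts in both S phase and G2, stood at 80.1, 79.02, 87.4 and 80.3 FPKM in wild type and 91.8, 91.9 and 94.2 FPKM in overexpressing libraries (log2 fold change 0.18, adjusted p = 0.00396). In all 3 genes the lowest overexpressing library was above the highest wild-type library. Cdc25c, a related phosphatase, rose from 11.4 ± 0.796 to 13.3 ± 0.529 FPKM (SD, n = 4 and 3, limma adjusted p = 0.0128), a call lost without overexpressing library 1 (adjusted p = 0.0543). Cdk1 itself, the kinase these cyclins and phosphatases act on, fell from 157, 163, 151 and 159 FPKM to 139.7, 143 and 147 FPKM (log2 fold change -0.14, SE 0.036, adjusted p = 0.0105), and was not called without overexpressing library 1 (adjusted p = 0.0528). Ccnb1, cyclin B1, was not called (log2 fold change 0.057, adjusted p = 0.178).

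Cdc20, which activates the anaphase promoting complex, the ubiquitin ligase that ends mitosis, had the highest fold change of the 45 genes. It stood at 69.1, 84.03, 77.9 and 84.6 FPKM in wild type and 100.3, 90.97 and 90.7 FPKM in overexpressing libraries. The groups still did not overlap (log2 fold change 0.25, SE 0.069, adjusted p = 0.0122), and the call was lost without overexpressing library 1 (adjusted p = 0.0534) and with no expression minimum (0.0651). Ube2c, the ubiquitin-conjugating enzyme of the same complex, had overlapping groups and was not called (log2 fold change 0.012, adjusted p = 0.831).

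Of the mitotic kinases and their passengers, 2 of 4 rose, where 23.9% of all tested genes did. Aurka, the spindle pole kinase aurora A, rose from 60.8 ± 1.80 to 67.1 ± 1.98 FPKM (SD, n = 4 and 3, limma adjusted p = 0.0103), and lost its call without overexpressing library 3 (adjusted p = 0.0517). Birc5, survivin, a member of the chromosomal passenger complex, rose from 148 ± 2.21 to 158 ± 1.23 FPKM (SD, limma adjusted p = 0.0209), a call lost without wild-type library 4 or overexpressing library 1 or 3 (adjusted p = 0.0576, 0.0739 and 0.0652). Aurkb, aurora B, the kinase of that complex, stood at 51.8, 57.3, 52.5 and 53.7 FPKM in wild type and 52.8, 53.1 and 55.1 FPKM in overexpressing libraries, with the groups fully interleaved (limma adjusted p = 0.947). Plk1, polo-like kinase, had separate groups but missed the threshold (log2 fold change 0.09, adjusted p = 0.0564), and passed it without wild-type library 2 (adjusted p = 0.0498) or with a common total (0.0219).

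In the spindle checkpoint, which delays anaphase until chromosomes are attached, Bub1 rose from 51.3 ± 2.62 to 56.03 ± 1.12 FPKM (SD, n = 4 and 3, limma adjusted p = 0.0373). The call was lost when any library other than wild-type library 1 was left out (adjusted p from 0.056 to 0.115), and with no expression minimum (0.0855). Bub1b and Mad2l1 were not called, with log2 fold changes of 0.058 and -0.075 (limma adjusted p = 0.257 and 0.0824).

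Among 6 kinetochore, spindle and cytokinesis genes, 2 rose and 1 fell (33.3% and 16.7%, beside 23.9% and 23.6% of all tested genes). Kif20a, a kinesin of the central spindle, stood at 49.3, 51.02, 46.96 and 48.1 FPKM in wild type and at 53.5, 57.7 and 55.7 FPKM in overexpressing libraries (log2 fold change 0.18, adjusted p = 0.00397). Kif23, a kinesin of the centralspindlin complex needed for cytokinesis, stood at 34.2, 30.7, 33.1 and 33.1 FPKM in wild type and 35.9, 38.1 and 36.7 FPKM with overexpression (log2 fold change 0.17, adjusted p = 0.0101). In both genes the groups were separate and the call held in every fit that left out 1 library. Tpx2, the spindle protein that activates aurora A, fell from 103 ± 4.14 to 94.4 ± 1.88 FPKM (SD, n = 4 and 3, limma adjusted p = 0.0207), so Tpx2 and Aurka were called in opposite directions. The Tpx2 call was lost without overexpressing library 1 or 2 (adjusted p = 0.0803 and 0.0576) and with a common total (0.0841). Kif11, the kinesin that separates spindle poles, was not called (log2 fold change -0.048, adjusted p = 0.414). The kinetochore genes Cenpe and Cenpf were not called either (log2 fold change 0.11 and 0.068), and wild-type library 1 was the highest of the wild-type libraries for both. Without that library Cenpe was called higher (limma adjusted p = 0.00713).

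Top2a, the topoisomerase that untangles sister chromatids, stood at 205, 182, 183 and 179 FPKM in wild type and 211, 219.9 and 211 FPKM in overexpressing libraries. Wild-type library 1 lay closest to the overexpressing libraries but below all of them (log2 fold change 0.19, SE 0.047, adjusted p = 0.0069). Mki67, the proliferation marker Ki-67, which coats mitotic chromosomes, stood at 32.5, 28.2, 28.9 and 26.1 FPKM in wild type and 30.6, 34.9 and 31.3 FPKM with overexpression, with overlapping groups (limma adjusted p = 0.0988), and was called higher without wild-type library 1 (adjusted p = 0.0164). Of the 13 mitotic calls, 6 held in every fit that left out 1 library, all of them higher: Ccna2, Ccnb2, Cdc25b, Kif20a, Kif23 and Top2a.

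The class means were taken per library. The mean log2(FPKM + 1) of the 22 S-phase genes was 5.65, 5.69, 5.65 and 5.66 in wild-type libraries 1 to 4 and 5.57, 5.56 and 5.56 in overexpressing libraries 1 to 3. That of the 23 mitotic genes was 5.84, 5.79, 5.79 and 5.78 in wild type and 5.89, 5.91 and 5.89 in overexpressing libraries. The mitotic mean minus the S-phase mean was 0.19, 0.11, 0.14 and 0.12 in wild type and 0.32, 0.35 and 0.32 with overexpression. On all 3 measures the groups did not overlap. Because the genes were chosen with earlier results of these data known, no test was made of these means.

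**Figure D2:**
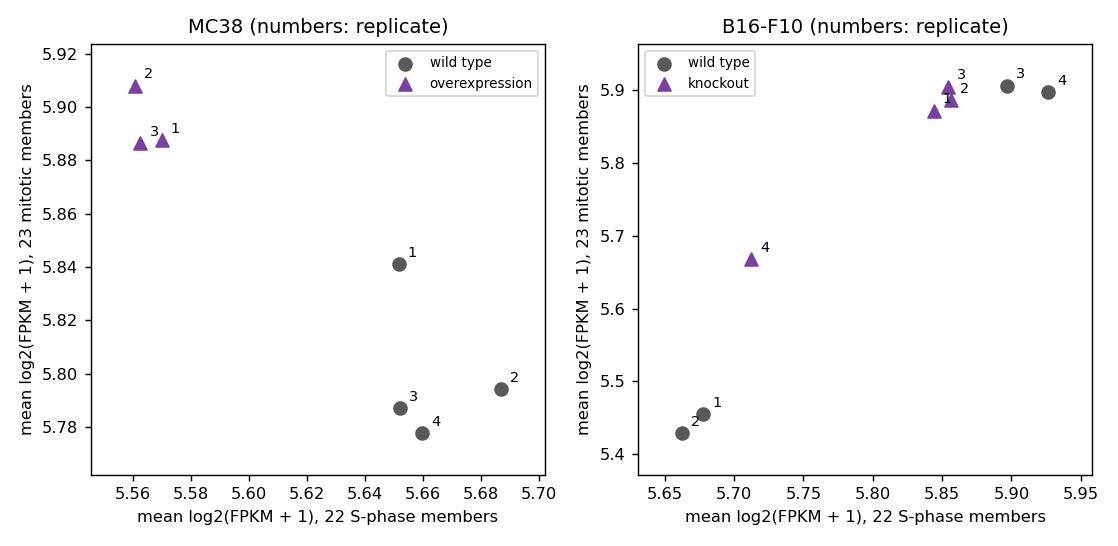
Mean log2(FPKM + 1) of the 22 S-phase genes (x axis) against that of the 23 mitotic genes (y axis), 1 point per library, for MC38 (left) and B16-F10 (right), numbered by replicate; the axes do not start at 0. In MC38 the overexpressing libraries sit at the upper left, at S-phase means of 5.56 to 5.57, apart from wild type at 5.65 to 5.69. In B16-F10 wild-type libraries 1 and 2 sit at the lower left with mitotic means of 5.45 and 5.43, and wild-type libraries 3 and 4 at the upper right with 5.91 and 5.90.

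Upstream sequences are shown for the 3 S-phase and 3 mitotic genes with the lowest adjusted p in MC38 among those with an entry in the RefSeq promoter table, to show the upstream sequence of called genes of each class. The table (build GRCm38.p6, an earlier build than the GRCm39 of the expression tables) held 36 of the 45 genes, 18 of each class, as windows of 300 bases. The 250 bases before the transcription start are printed 5′ to 3′ along the gene's strand, at chr7:38107491-38107740 (minus strand) for Ccne1, chr2:132253181-132253430 (minus strand) for Pcna, chr5:138171884-138172133 (minus strand) for Mcm7 (1 of 2 listed starts), chr2:131186698-131186947 (plus strand) for Cdc25b, chr9:70421555-70421804 (minus strand) for Ccnb2 and chr11:99024190-99024439 (minus strand) for Top2a. Capitals mark matches on either strand to 3 motifs: E2F type (TTTGGCGC, TTTCCCGC, TTTGCCGC or TTTCGCGC), CHR type (TTTGAA or TTCGAA) and the CCAAT box (CCAAT). These motifs do not contain each other.
Ccne1: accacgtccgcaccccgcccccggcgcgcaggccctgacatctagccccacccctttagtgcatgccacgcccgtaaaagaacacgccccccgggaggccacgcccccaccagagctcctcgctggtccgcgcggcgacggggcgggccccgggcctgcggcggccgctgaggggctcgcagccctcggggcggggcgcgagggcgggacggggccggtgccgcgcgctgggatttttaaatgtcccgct
Pcna: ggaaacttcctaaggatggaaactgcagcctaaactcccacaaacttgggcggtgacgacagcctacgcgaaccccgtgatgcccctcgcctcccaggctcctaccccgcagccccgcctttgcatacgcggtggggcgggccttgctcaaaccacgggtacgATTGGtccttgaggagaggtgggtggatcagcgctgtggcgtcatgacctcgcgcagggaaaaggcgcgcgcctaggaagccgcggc
Mcm7: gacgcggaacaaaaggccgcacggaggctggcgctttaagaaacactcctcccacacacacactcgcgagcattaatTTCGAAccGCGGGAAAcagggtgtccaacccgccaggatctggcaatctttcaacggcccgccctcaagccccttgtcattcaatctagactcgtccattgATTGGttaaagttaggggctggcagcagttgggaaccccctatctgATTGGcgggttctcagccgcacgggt
Cdc25b: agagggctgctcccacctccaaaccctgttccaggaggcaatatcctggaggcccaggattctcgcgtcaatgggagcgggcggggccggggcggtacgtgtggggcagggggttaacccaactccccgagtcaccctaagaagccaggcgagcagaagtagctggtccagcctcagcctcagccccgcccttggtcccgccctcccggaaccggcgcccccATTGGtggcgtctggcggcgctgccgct
Ccnb2: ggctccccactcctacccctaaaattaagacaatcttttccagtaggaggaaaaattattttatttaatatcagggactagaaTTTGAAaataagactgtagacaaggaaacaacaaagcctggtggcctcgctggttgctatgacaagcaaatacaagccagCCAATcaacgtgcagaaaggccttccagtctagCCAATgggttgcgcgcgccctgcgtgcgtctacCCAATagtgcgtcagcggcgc
Top2a: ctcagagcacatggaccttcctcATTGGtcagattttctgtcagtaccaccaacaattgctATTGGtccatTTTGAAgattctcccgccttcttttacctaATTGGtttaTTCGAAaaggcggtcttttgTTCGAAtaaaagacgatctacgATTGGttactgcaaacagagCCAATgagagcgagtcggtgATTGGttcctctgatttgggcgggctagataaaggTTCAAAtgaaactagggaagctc
Top2a held CHR-type and CCAAT matches, several of each, and Ccnb2 a CHR-type match upstream of 3 CCAAT boxes and a further CHR-type match after the start, outside the printed stretch. Cdc25b showed 1 CCAAT box here, and its CHR-type match lay after the start, outside the printed stretch. Mcm7 held an E2F-type match next to a CHR-type match and 2 CCAAT boxes, and a further E2F-type match and CCAAT box lay after its start. Pcna held a CCAAT box alone, and Ccne1 held none of these letters in its window.

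Over the whole windows of 300 bases, the motifs were counted in each class. A CHR-type match was present in 14 of 18 mitotic genes (77.8%) and 3 of 18 S-phase genes (16.7%), beside 21.66% of all 27025 genes of the table. The 14 mitotic genes with a CHR-type match all held a CCAAT box too, a combination found in 8.61% of the table. An E2F-type match was present in 7 of 18 S-phase genes (38.9%) and in 1 of 18 mitotic genes (Cdk1, 5.56%), beside 2.6% of the table. The CCAAT box was present in 12 of 18 S-phase and 16 of 18 mitotic genes (66.7% and 88.9%), beside 41.06% of the table. Among the 8394 genes tested in MC38 that had an entry, the shares were 5.25% for E2F type, 16.55% for CHR type and 44.25% for CCAAT. Cdk1, which fell in MC38, was the mitotic gene with the E2F-type match, and it also held CHR-type and CCAAT matches. A match describes the letters of the window and was not tested as a binding site.

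Wider lists of the same pathways were counted in MC38 by the same test. Of 38 further replication genes 10 fell and 6 rose (26.3% and 15.8%, beside 23.6% and 23.9% of all tested genes), with a median log2 fold change of -0.066, so the share that fell was near that of all genes. Dut, the enzyme that keeps uracil out of DNA, fell from 153 ± 2.07 to 114 ± 3.61 FPKM (SD, n = 4 and 3, log2 fold change -0.42, SE 0.032, adjusted p = 4.03e-06), and Rfc5, a subunit of the clamp loader of Pcna, from 33.8 ± 1.95 to 27.3 ± 1.78 FPKM (log2 fold change -0.30, adjusted p = 0.00149). In the other direction, Pole2, a subunit of DNA polymerase epsilon, rose from 17.6 ± 0.651 to 21.2 ± 1.16 FPKM (log2 fold change 0.25, adjusted p = 0.00184). Gins3, of the GINS complex, rose from 5.53 ± 0.426 to 6.65 ± 0.558 FPKM (log2 fold change 0.23, adjusted p = 0.0239), a call lost without wild-type library 2 or 4 or overexpressing library 2 (adjusted p = 0.0558, 0.0596 and 0.105) or with no expression minimum (0.0703). Gins1 and Gins3 of the same complex were thus called in opposite directions. Of 38 further mitotic genes 12 rose and 1 fell (31.6% and 2.63%), with a median of 0.051. Nuf2, of the kinetochore's Ndc80 complex, rose from 39.7 ± 2.18 to 52.02 ± 0.392 FPKM (log2 fold change 0.38, SE 0.044, adjusted p = 6.35e-05) and Dlgap5, a spindle protein, from 30.8 ± 0.606 to 38.4 ± 2.51 FPKM (log2 fold change 0.31, adjusted p = 0.000348). Incenp, the scaffold of the chromosomal passenger complex, was the 1 that fell (log2 fold change -0.15, adjusted p = 0.00245).

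Of 31 listed genes of G1 control and the cell cycle brakes 30 were tested in MC38. Of these 7 rose and 6 fell (23.3% and 20%), shares near the 23.9% and 23.6% of all tested genes, with a median log2 fold change of 0.0009. Cdkn2b, the CDK4/6 inhibitor p15, stood at 16.6, 18.1, 18.3 and 21.95 FPKM in wild type and 32.8, 32.95 and 28.1 FPKM in overexpressing libraries, 67.1% higher on average (log2 fold change 0.71, SE 0.087, adjusted p = 9.35e-05). Cdkn2d, the related inhibitor p19, rose from 6.21 ± 0.556 to 10.2 ± 0.884 FPKM (SD, n = 4 and 3, limma adjusted p = 7.53e-05). Ccnd2, cyclin D2, which activates CDK4/6, fell from 47.2 ± 0.618 to 37.4 ± 1.27 FPKM (limma adjusted p = 4.1e-05). Mybl2, B-Myb, a transcription factor that acts on mitotic genes, fell from 31.6 ± 0.881 to 25.1 ± 0.575 FPKM (limma adjusted p = 7.96e-05). All 4 had groups that did not overlap, and their changes were larger than that of any of the 45 genes.

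In B16-F10 none of the 45 genes was called between knockout and wild type: 0 of 22 S-phase and 0 of 23 mitotic genes passed limma's test at an adjusted p under 0.05, where 2.23% of all 10902 tested genes did (1.33% higher and 0.899% lower). At an unadjusted p under 0.05, 1 S-phase gene was higher (Cdc45) and 1 lower (Cdt1), and 3 mitotic genes were higher (Aurkb, Kif23 and Mki67), where 13.3% of all tested genes were higher and 8.03% lower. With limma's estimated library weights 1 S-phase gene (Cdc45) and 2 mitotic genes (Aurkb and Kif23) were called higher, among 776 calls in either direction over all 10902 tested genes. The median log2 fold change was 0.046 over the S-phase genes and 0.15 over the mitotic genes, beside 0.024 over all tested genes. Fold changes were above 0 for 15 of 22 S-phase and 22 of 23 mitotic genes, where 6294 of all 10902 tested genes were above 0. These genes share the same libraries, so they are not counts of independent results. Cdt1 was the single gene of the 45 whose groups did not overlap, where 8.53% of all tested genes were separate as higher and 5.32% as lower. The melanocyte marker sums given above overlapped between the groups.

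**Figure D3:**
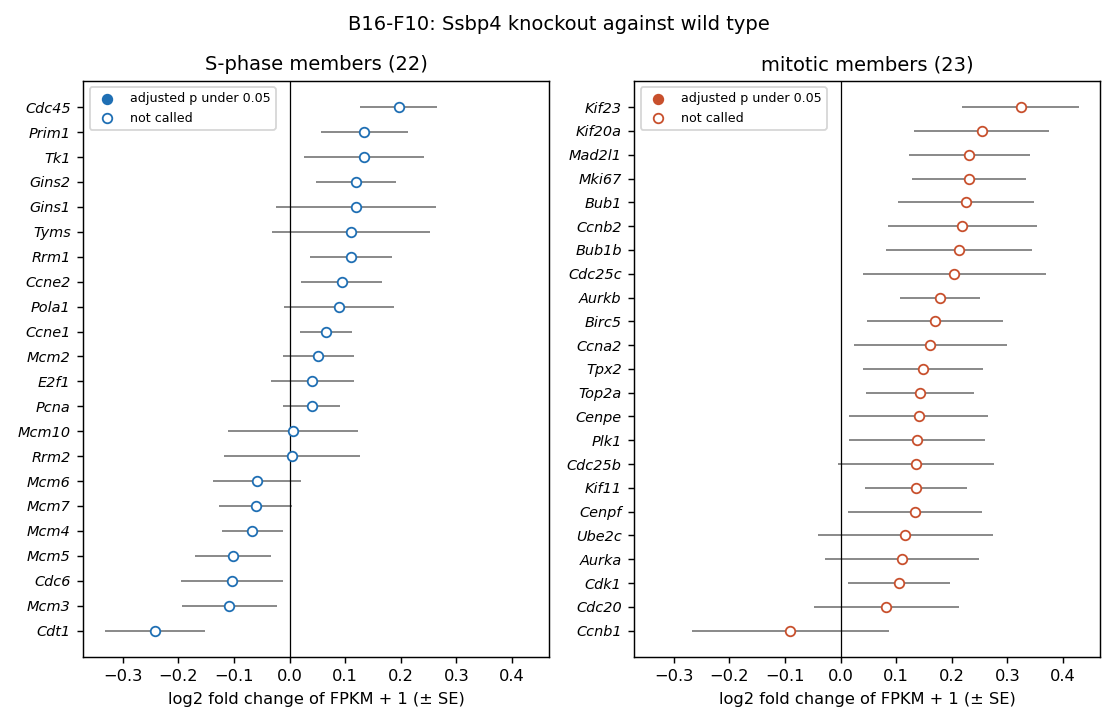
Log2 fold change of FPKM + 1 (knockout over wild type, x axis) for each of 22 S-phase genes (left) and 23 mitotic genes (right) in B16-F10, with bars for the standard error. All points are open because 0 genes were called; the mitotic values run from -0.091 for Ccnb1 to 0.32 for Kif23.

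On these genes the wild-type libraries of B16-F10 formed a low and a high pair. Wild-type libraries 3 and 4 were both above libraries 1 and 2 for 19 of 22 S-phase and 23 of 23 mitotic genes, where 36.5% of all tested genes had this order and 35.8% the reverse. This order was noticed in the values and was not tested. Ccnb1, cyclin B1, showed it most: 60.9, 59.6, 99.7 and 101 FPKM in wild-type libraries 1 to 4 and 75.1, 75.4, 78.1 and 63.9 FPKM in knockout libraries 1 to 4. The knockout values all lay between the low and the high wild-type pair. The coefficient of variation among wild-type libraries had a median of 18.6% over the mitotic genes, 10.3% over the S-phase genes and 8.52% over all tested genes. In the knockout libraries these medians were 8.44%, 5.96% and 6.03%. Estimated depth was 48.5, 46.4, 40.4 and 32.2 M fragments in wild-type libraries 1 to 4, higher in the pair with lower levels. The 7 melanocyte markers took the opposite order: all 7 were higher in wild-type libraries 1 and 2 than in 3 and 4, with summed levels of 13979, 14075, 10982 and 10989 FPKM. In knockout libraries 1 to 4 depth was 43.8, 46.4, 42.5 and 38.6 M fragments. The markers summed to 14154, 13903, 13765 and 13645 FPKM there. Both were lowest in knockout library 4, which also had the lowest mean level of both classes among the knockout libraries. The part of depth and of these markers in these orders was not tested.

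The knockout libraries were more alike, apart from library 4. That library was the lowest of the 4 for 17 of 22 S-phase and 22 of 23 mitotic genes, where it was so for 35.7% of all tested genes. Every knockout library was above wild-type libraries 1 and 2 for 23 of 23 mitotic and 11 of 22 S-phase genes (23.8% of all tested genes), and every knockout library lay within the wild-type range for 12 and 8 of them (26.3%). The mean log2 level of the mitotic genes was 5.45, 5.43, 5.91 and 5.90 in wild-type libraries 1 to 4 and 5.87, 5.89, 5.90 and 5.67 in knockout libraries 1 to 4. That of the S-phase genes was 5.68, 5.66, 5.90 and 5.93 against 5.84, 5.86, 5.85 and 5.71. On both means the knockout libraries lay inside the wild-type range. The mean over all tested genes was 3.98 to 3.99 in wild type and 4.00 to 4.02 in knockout, without overlap. The mitotic mean minus the S-phase mean was -0.22, -0.23, 0.0095 and -0.030 in wild type and 0.028, 0.030, 0.050 and -0.045 in knockout, so knockout libraries 1, 2 and 3 lay above every wild-type library and library 4 among them. No test was made of these means.

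**Figure D4:**
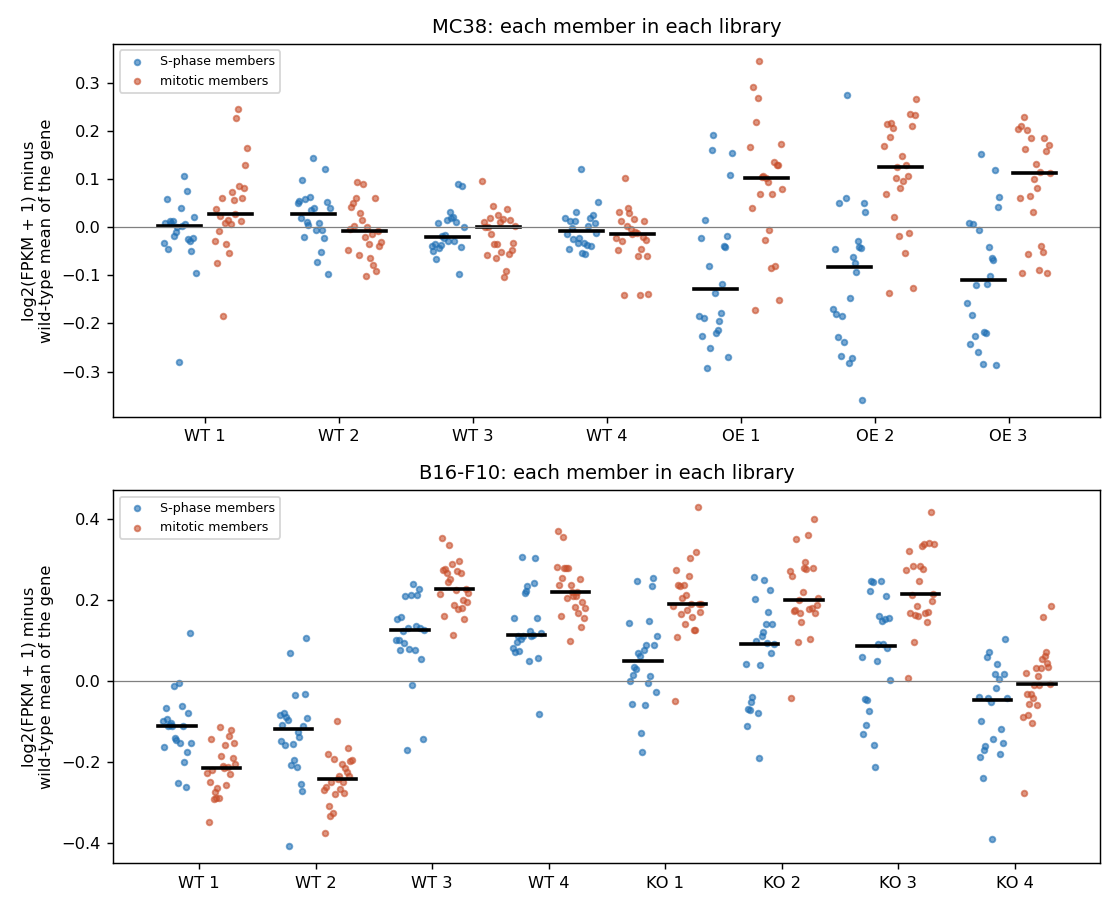
Each gene's log2(FPKM + 1) minus its wild-type mean (y axis) in each library (x axis) of MC38 (top) and B16-F10 (bottom), with S-phase and mitotic genes side by side and a black line at the median of each class. In MC38 the 3 overexpressing libraries have S-phase medians below 0 and mitotic medians above it. In B16-F10 wild-type libraries 1 and 2 lie below 0 in both classes and 3 and 4 above, and knockout library 4 lies lower than the other 3 knockout libraries.

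By role, B16-F10 fold changes were above 0 for 4 of 9 helicase genes and 1 of 3 loading and activation genes, and for 3 of 3 synthesis, 4 of 4 nucleotide supply and 3 of 3 G1/S control genes, with 0 called. Over all tested genes 6294 of 10902 were above 0. Mcm3, Mcm4, Mcm5, Mcm6 and Mcm7 of the ring had log2 fold changes of -0.11, -0.067, -0.10, -0.059 and -0.061, and Mcm2 had 0.052. Mcm7 stood at 79.8, 80.8, 93.9 and 90.6 FPKM in wild type and 87.8, 83.7, 81.6 and 76.9 FPKM in knockout. Its level in knockout library 4 was below every wild-type library, and libraries 1, 2 and 3 lay between the low and the high wild-type pair. Cdc45 stood at 29.4, 29.5, 33.8 and 34.1 FPKM in wild type and at 37.7, 37.99, 37.1 and 32.98 FPKM in knockout. Knockout library 4 lay within the wild-type range and the other 3 above it (log2 fold change 0.20, SE 0.069, adjusted p = 0.15). Cdt1 stood at 47.4, 47.1, 55.6 and 61.5 FPKM in wild type and at 46.4, 45.96, 45.2 and 39.8 FPKM in knockout, with all 4 knockout libraries below wild type (log2 fold change -0.24, SE 0.090, adjusted p = 0.169). Pcna stood at 327, 320.2, 325 and 339 FPKM in wild type and 315, 354, 349 and 332 FPKM in knockout, and Ccne1 at 27.6, 28.5, 30.3 and 30.4 FPKM in wild type and 31.1, 30.6, 30.9 and 29.5 FPKM in knockout. These 2 genes, both lower with overexpression in MC38, had overlapping groups here (limma adjusted p = 0.702 and 0.469). Rrm2, Tyms and Tk1 followed the library order of the wild-type pairs, and Rrm2 stood at 209, 202, 279 and 285 FPKM in wild type against 243, 257, 256 and 212 FPKM in knockout.

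Kif23 had the largest difference among the 45 genes in B16-F10. It stood at 38.8, 37.6, 47.2 and 46.5 FPKM in wild type and at 57.4, 56.2, 56.9 and 43.7 FPKM in knockout. Knockout libraries 1, 2 and 3 were above every wild-type library, whereas library 4 lay inside the wild-type range (log2 fold change 0.32, SE 0.11, adjusted p = 0.126). Without knockout library 4 Kif23 was called higher (log2 fold change 0.42, adjusted p = 0.0429). Kif20a, Mad2l1, Mki67 and Bub1 had log2 fold changes of 0.25, 0.23, 0.23 and 0.23 and were not called (limma adjusted p = 0.264, 0.259, 0.234 and 0.326). Aurkb stood at 60.4, 60.9, 70.7 and 70.1 FPKM in wild type and at 75.95, 76.4, 77.8 and 66.9 FPKM in knockout, again with library 4 alone inside the wild-type range (limma adjusted p = 0.197). Ccnb2 stood at 45.1, 44.7, 65.3 and 63.7 FPKM in wild type and 65.4, 64.6, 67.5 and 54.6 FPKM in knockout, and Top2a at 134, 129.6, 170.4 and 166 FPKM in wild type and 168, 169.8, 173 and 148 FPKM in knockout, both with the wild-type pairs apart and the groups overlapping (limma adjusted p = 0.383 and 0.435).

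**Figure D5:**
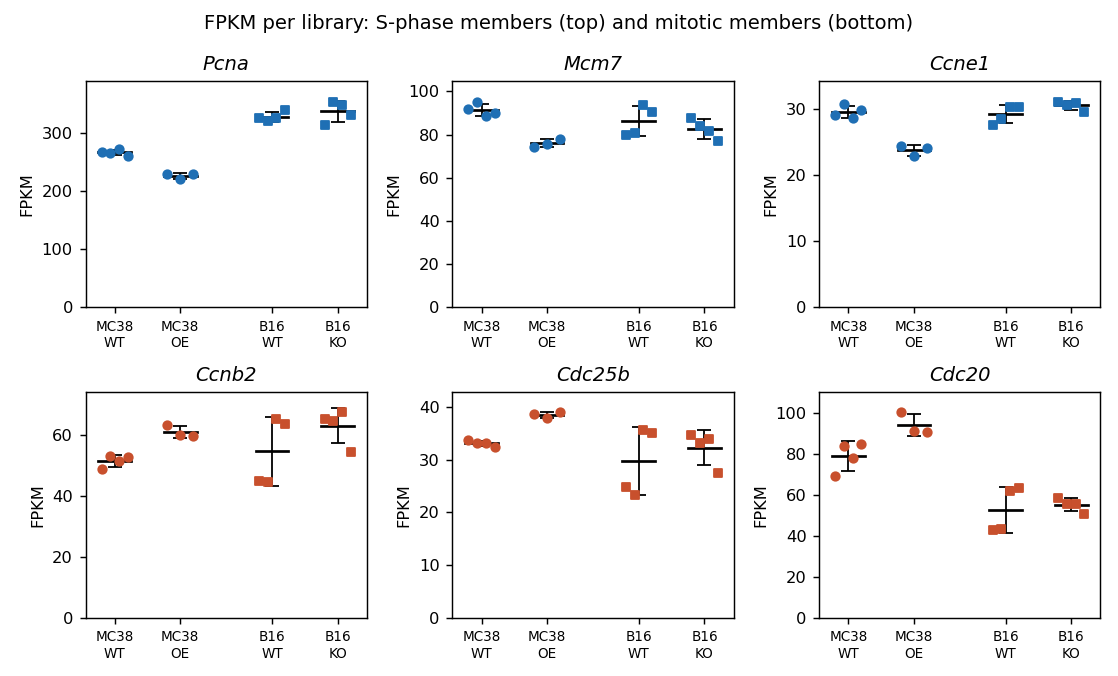
FPKM in each library (points, y axis from 0) with the group mean and SD (lines) for 3 S-phase genes (top: Pcna, Mcm7, Ccne1) and 3 mitotic genes (bottom: Ccnb2, Cdc25b, Cdc20) in the 4 groups (x axis). In MC38 the overexpressing points lie below wild type in the top row and above it in the bottom row, whereas in B16-F10 the knockout points overlap wild type in all 6 panels.

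The wider lists in B16-F10 gave few calls. Of all 10902 tested genes 2.23% were called, and at an unadjusted p under 0.05 13.3% were higher and 8.03% lower. Of 38 further replication and 38 further mitotic genes, limma called 0 in either direction (at an unadjusted p under 0.05, 3 higher and 1 lower, and 1 higher and 1 lower). The most abundant of them were Uhrf1, a maintenance methylation factor (169 ± 14.6 against 157 ± 5.32 FPKM, SD, n = 4 each), and Rpa1, which coats single-stranded DNA (128 ± 13.9 against 128 ± 5.45 FPKM), and for mitosis the checkpoint gene Bub3 (102 ± 0.534 against 99.8 ± 2.90 FPKM) and the condensin subunit Ncapd2 (90.7 ± 12.7 against 100.5 ± 7.77 FPKM). Among 28 tested genes of G1 control and the brakes, 8 were higher and 2 lower at an unadjusted p under 0.05. At an adjusted p under 0.05, 0 fell and 1 rose (3.57%, beside 1.33% of all tested genes). It was Cdkn1b, the CDK inhibitor p27, at 36.1, 36.000, 33.7 and 32.8 FPKM in wild type and 40.4, 42.5, 43.6 and 39.6 FPKM in knockout (log2 fold change 0.25, SE 0.051, adjusted p = 0.0462). Its groups did not overlap, but the call was lost in every fit that left out 1 library except the fit without knockout library 4 (adjusted p from 0.0565 to 0.158), and with median-of-ratios scaling (0.0529) or no expression minimum (0.0678).

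The 2 comparisons, of opposite perturbations in different lines, can be set side by side gene by gene, and the difference between lines was not tested. Fold changes were above 0 in both lines for 17 of 23 mitotic and 4 of 22 S-phase genes, and below 0 in both for 0 and 5. They were below 0 in MC38 and above 0 in B16-F10 for 5 mitotic and 11 S-phase genes, and the reverse for 1 and 2. Of all tested genes, 5196 of 10748 in MC38 and 6294 of 10902 in B16-F10 had fold changes above 0. The share of all genes with the same sign in both lines was not counted. Only the MC38 values include calls, since 0 of the 45 genes was called in B16-F10.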

How the data were processed

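Per the labels' protocols, 7 MC38 and 8 B16-F10 libraries were made from polyadenylated RNA with a kit that keeps strand. The authors deposited 1 table per line of FPKM per gene symbol. The submitters' processing notes name GRCm39 and DESeq2 without versions; which aligner, counter and annotation they used is not given in the sources used here. Columns were matched to samples by their labels, with 0 left unmatched. Tables were fitted separately.

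FPKM are not counts, so log2(FPKM + 1) was tested in R 4.3.3 with limma 3.58.1 (mean-variance trend, two-sided) on genes with a mean of at least 1 FPKM over the line's libraries, with Benjamini-Hochberg adjustment over all of them. A fold change on this scale understates that of low genes. The method was also run on simulated data, but the settings and outcome of that run are not given here. No conclusion about the genes called or not called is drawn from that run. Depth came from low FPKM values as multiples of 1 fragment; 79.7 to 84.4% of these lay within 0.1 of a whole number, too few to recover counts. On approximate counts rebuilt from that depth, for genes with 1 annotated transcript, no replicate pair agreed within sampling noise (ratio of chi-square to degrees of freedom 5.89 to 31.6). These ratios are rough, since the counts behind them are estimates.

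The members and lists were chosen with earlier results of these data known. The naming rule took all 45 members and Ssbp4, and from 3 further lists, of replication, mitosis and G1 control, up to 2 highest and 2 lowest called genes per line with separate groups and a higher group mean of at least 5 FPKM, or up to 2 of the most abundant where none was called. Alternatives changed the pseudocount to 0.1, the filter (a mean of 0.1, 5 or none), the scaling (common total, median-of-ratios), the variance model and library weights, left out each library in turn, and added the replicate number as a block. Promoter windows are RefSeq's on GRCm38.p6. Python 3.11.15 with matplotlib 3.10.9 served for figures and counts.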

Additional observations from a re-analysis of the deposited data

Results flagged for a closer look

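In groups of 4 libraries, a library was noted where its gap to the nearest of the others exceeded Dixon's 95% critical value, as a share of the group's range. Chance alone gives this in about 1 in 20 groups, and 17 of the 144 groups of values examined met it. The groups share libraries and many of these genes vary together, so the 144 are not independent and 17 cannot be judged against that rate.

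In MC38 wild type, library 3 stood apart for Cdc45 (41.5 FPKM, the lowest, others 42.9), Aurka (58.2 FPKM, the lowest, others 61.5 to 62.1), Tyms (13.3 FPKM, the highest, others 12.04 to 12.19) and Ccna2 (87.4 FPKM, the highest, others 79.0 to 80.3). Library 1 stood apart for Cenpe (19.9 FPKM, the highest, others 15.6 to 16.1), for Top2a (205 FPKM, the highest, others 179 to 183) and for Ssbp4 (13.2 FPKM, the lowest, others 17.0 to 17.6).

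In the B16-F10 knockout group, library 4 was far below the other 3 for 7 genes. Kif23 stood at 43.7 FPKM there (others 56.2 to 57.4), Tk1 at 91.0 (others 117 to 121), Ube2c at 91.4 (others 110.4 to 113.6) and Rrm1 at 122 (others 134.6 to 135.4). Bub1b stood at 39.0 FPKM (others 47.8 to 48.8), Aurka at 49.2 (others 54.8 to 55.6) and Cenpe at 14.2 (others 15.3 to 15.5). The mean log2 level of that library was 5.71 over the S-phase genes (others 5.84 to 5.86) and 5.67 over the mitotic genes (others 5.87 to 5.90). For Mki67 it was knockout library 3 that stood apart, at 54.4 FPKM (others 48.8 to 49.5).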

How the results depend on the processing

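Of 720 values of the 45 genes over the MC38 alternatives, 665 kept their direction and side of the threshold, 37 (11 genes) lost the call, 9 (5 genes) gained one and 9 (4 genes) changed sign. In B16-F10 743 of 765 kept both, 4 (3 genes) gained a call and 18 (6 genes) changed sign. In MC38 the S-phase genes called lower numbered 10 in the fit as reported, 8 with a common total and 8 to 11 on leaving out 1 library. The mitotic genes called higher numbered 11 (7 to 13 on leaving out 1 library), and those called lower 2 (1 with a common total, 0 to 2 on leaving out 1 library). Median log2 fold changes ran from -0.13 to -0.092 over the S-phase genes and from 0.091 to 0.15 over the mitotic genes on leaving out 1 library, and were -0.089 and 0.13 with a common total. The median over all tested genes was 0.015 with a common total, against -0.0088. All genes called numbered 5107 in MC38 (4307 to 5109 on leaving out 1 library).

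In B16-F10 243 genes were called, 140 with a filter at 0.1 FPKM, 73 with none, 776 with library weights and 23 to 414 on leaving out 1 library. Of these calls 59.7% were higher, 73.1% with a common total, 39.8% with median-of-ratios scaling and 45.2% with no filter. S-phase genes called higher went from 0 to 1 with library weights, and mitotic genes from 0 to 2 (0 to 1 on leaving out 1 library). Median log2 fold changes on leaving out 1 library ran from 0.014 to 0.082 (S phase) and from 0.074 to 0.23 (mitosis).

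The genes whose sign changed were, in MC38, Mcm3 (0.0068 with a common total), Aurkb (0.022 with a common total, -0.022 to 0.026 on leaving out 1 library), Ube2c (-0.017 to 0.045 on leaving out 1 library) and Tk1 (-0.031 to 0.059). In B16-F10 they were Mcm10 (-0.017 with median-of-ratios scaling, -0.078 to 0.084 on leaving out 1 library), Rrm2 (-0.020 and -0.081 to 0.085), Ccnb1 (0.048 with library weights, -0.22 to 0.033 on leaving out 1 library), E2f1 (-0.010 to 0.083), Cdc20 (-0.010 to 0.18) and Gins1 (-0.017 to 0.22), besides Rpa1 (-0.010 with median-of-ratios scaling, -0.033 to 0.072 on leaving out 1 library). The cause was not tested. The lowest value of any of the 45 genes was 7.26 FPKM (Cenpf in B16-F10).

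The replicate numbers did not pair libraries: deviations of same-numbered libraries correlated at -0.29, -0.066 and -0.074 in MC38 and at -0.11, -0.18, 0.17 and -0.30 in B16-F10. Among wild-type libraries, only B16-F10 library 3 correlated best with the perturbed library of its own number. With the replicate block, 3906 genes were called in MC38, among them 8 S-phase genes lower, 1 higher, and 5 mitotic genes higher and 0 lower. In B16-F10 12 genes were called with the block (33.3% higher) and Cdkn1b lost its call (adjusted p = 0.154).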

Other observations

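Levels of the 45 genes in wild-type cells were ranked alike at the top in both lines, with Pcna (266 ± 4.95 FPKM in MC38 and 328 ± 8.03 in B16-F10, SD, n = 4 each) ahead of Rrm2 (259 ± 3.43 and 244 ± 44.5 FPKM); within B16-F10 the Rrm2 libraries ran from 202 to 285 FPKM. The tables were normalized separately, so ratios between lines are a description. Tyms, thymidylate synthase, was 4.59 times as high in B16-F10 (46.5, 46.2, 65.8 and 69.4 FPKM, against 12.1, 12.2, 13.3 and 12.04 FPKM in MC38), and Mcm2 2.57 times. Ube2c stood lowest by this ratio, at 0.448, with 80.4, 78.2, 124 and 119.7 FPKM in B16-F10 and 226, 216, 232 and 225 FPKM in MC38.

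Cdkn1a, the p53-induced CDK inhibitor p21, was chosen after its values were seen. In B16-F10 it stood at 119.9, 123, 73.97 and 77.5 FPKM in wild-type libraries 1 to 4 and at 58.5, 55.1, 54.4 and 85.9 FPKM in knockout libraries 1 to 4. Wild-type libraries 1 and 2 and knockout library 4, the libraries with the lowest mitotic means, had the 3 highest Cdkn1a values, and the groups overlapped (log2 fold change -0.62, SE 0.20, limma adjusted p = 0.126). Of all tested genes, 35.8% had wild-type libraries 3 and 4 both below 1 and 2. Knockout library 4 was the highest of the knockout libraries for 28.6% of them. How many had both orders was not counted, and a link to the mitotic genes was not tested. In MC38 Cdkn1a stood at 10.8, 12.9, 12.4 and 12.8 FPKM in wild type and 11.1, 11.5 and 11.7 FPKM with overexpression (limma adjusted p = 0.291). Cdkn1b, which was called higher in the B16-F10 knockout, was also called higher in MC38 with overexpression, at 13.2, 13.04, 13.6 and 11.9 FPKM in wild type and 21.3, 19.8 and 18.8 FPKM in overexpressing libraries (log2 fold change 0.59, limma adjusted p = 2e-05).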
